A study of Arabidopsis thaliana with 16 samples.

Results

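The nuclear genes of the photosystems and of Rubisco were followed in 3′-end RNA sequencing of 10-day-old *Arabidopsis thaliana* seedlings. The set was chosen by gene name, with earlier results of these data known. It holds 45 of the 32833 genes in the count table: 4 LHCA, 14 LHCB, 12 PSA, 10 PSB and 4 RBCS genes, and *RCA*. *LHCA5*, *LHCA6*, *LHCB7*, *PSBTN*, *PSB27* and *PSBP2* have names of these families and are outside the set. All 45 had a row in the table. Libraries fell into 4 groups of 4: untreated WT (Col-0), untreated *fer*, and WT and *fer* given arabidopside A at 12.5 µM for 2 h. *fer* stands for the *fer-4* mutant of the receptor kinase gene FERONIA (*FER*), and the samples labelled Aradopside are taken as the arabidopside A of the protocol. Every seedling, controls included, was moved from 1/2 MS plates to liquid 1/2 MS for 2 h beforehand, and no solvent is named for the controls. The *fer-4* allele is a T-DNA insertion, so each result on *fer* concerns 1 mutant line. The labels do not say whether replicates were separate plates or plants, so p-values measure the spread between these libraries, which may be technical.

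Photosystem I and photosystem II are the membrane complexes of the chloroplast that turn light into electron transport. Each has a core of chloroplast-encoded reaction centre proteins, to which the nucleus adds small subunits (PSA genes for photosystem I, PSB genes for photosystem II) and chlorophyll-binding antenna proteins (LHCA for photosystem I, LHCB mainly for photosystem II). The RBCS genes encode the small subunit of Rubisco, which fixes CO2 in the Calvin cycle, and *RCA* encodes Rubisco activase, which frees Rubisco of bound inhibitors. Transcripts of these genes are markers of green tissue and rise with light. *FER* is a plasma membrane receptor of RALF peptides with roles in cell growth, and arabidopside A is a chloroplast galactolipid that carries the jasmonate precursor OPDA.

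Library totals were 3928186 to 5985875 counts in WT control, 3731548 to 5212147 in WT with arabidopside A, 2843653 to 4966370 in *fer* control and 4994304 to 26358335 in *fer* with arabidopside A, where replicate 2 stood apart with the highest total. *FER* had 356 to 793 counts in the 8 WT libraries and 0 to 14 in the 8 *fer* libraries (log2 fold change -6.28, SE 0.29, adjusted p = 1.7e-07 in the controls). No pair of libraries within a group was a duplicate, since each differed beyond counting error (chi-square per gene 2.61 or more). Replicates 1 and 2 of *fer* control deviated from their group mean with replicates 1 and 2 of *fer* with arabidopside A, and replicates 3 and 4 with 3 and 4, and *fer* replicates 1 and 2 stood apart from 3 and 4 for most of the genes described here. The 7 chloroplast-encoded genes of the same complexes (*PSAA*, *PSAB*, *PSBA*, *PSBB*, *PSBC*, *PSBD* and *RBCL*) had 0 counts in all 16 libraries and could not be compared.

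The 45 genes took a smaller share of the counts in *fer* than in WT. They made up 5.73%, 6.10%, 5.75% and 5.21% of the counts in the 4 WT control libraries (5.70% ± 0.368, SD, n = 4) and 4.06%, 3.31%, 1.92% and 2.54% in the *fer* control libraries (2.96% ± 0.925, SD, n = 4). With arabidopside A the shares were 4.75%, 5.15%, 5.25% and 4.81% in WT (4.99% ± 0.249) and 3.70%, 3.00%, 2.12% and 1.93% in *fer* (2.69% ± 0.822). Each of the 8 *fer* libraries lay below each of the 8 WT libraries. By subfamily, LHCB genes took 1.54% ± 0.11 of WT control counts and 0.874% ± 0.273 of *fer* control counts, PSA genes 1.43% ± 0.0751 and 0.744% ± 0.225, PSB genes 1.06% ± 0.0543 and 0.611% ± 0.184, and RBCS genes 1.28% ± 0.142 and 0.516% ± 0.206. In whole seedlings, fewer green cells and less of these RNAs per cell cannot be told apart.

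**Figure D1:**
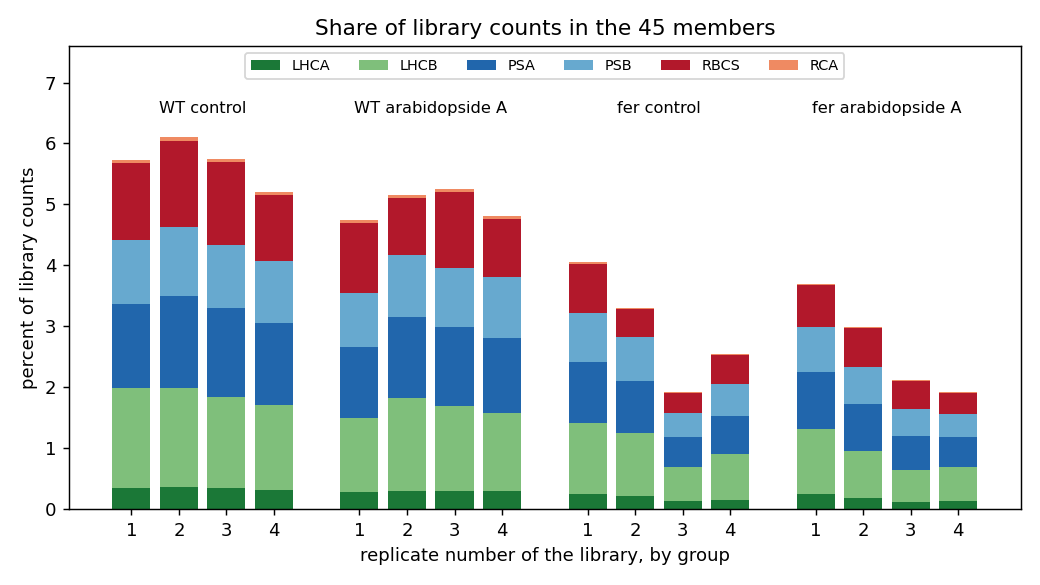
Percent of each library's counts assigned to the 45 genes, stacked by subfamily, for the 4 libraries of each group. The WT control libraries reach 5.21% to 6.10%, the *fer* control libraries 1.92% to 4.06%.

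Between *fer* and WT control seedlings, 32 of the 44 genes that passed edgeR's filter on low counts were at decreased levels in *fer* and 0 at increased levels, with an adjusted p threshold of 0.05 over all 17001 genes tested. That is 72.7% of them, where 11.5% of all genes tested were lower and 15.7% higher (27.2% in all). The median log2 fold change was -0.68 for the 44 genes and -0.03 for all genes tested. Negative values were found for 41 of the 44, against 52.2% of all genes tested. For 27 of the 45 genes (60%) every *fer* control library lay below every WT control library, against 13.6% of all genes tested. For 0 genes every *fer* library lay above, against 16.2%. The 12 genes that did not pass were *LHCA1*, *LHCA4*, *LHCB1.1*, *LHCB2.1*, *LHCB2.2*, *LHCB2.3*, *LHCB3*, *LHCB4.2*, *LHCB6*, *PSAD2*, *PSAH2* and *PSAO*. *LHCB4.3*, with 66 counts in the 8 control libraries, did not pass the filter. The count of higher genes was also 0 at an unadjusted p under 0.05 (20.7% of all genes tested were higher by that rule), with DESeq2 and with limma-voom. The shares of all genes higher with DESeq2 and limma-voom are not given here. Without WT control replicate 2 the count of lower genes fell to 20, the lowest of the 8 fits that each left out 1 library. The highest was 37, and the share of all genes lower in those fits is not given here. Of the 32, 20 passed in each of the 20 alternatives, and the other 12, *PSAF* and *PSBR* among them, missed the threshold in at least 1. Of the 12 that did not pass, *LHCA1*, *LHCB3*, *LHCB6*, *PSAD2*, *PSAH2* and *PSAO* were called lower in at least 1 of the fits that left out *fer* control replicate 1 or 2.

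**Figure D2:**
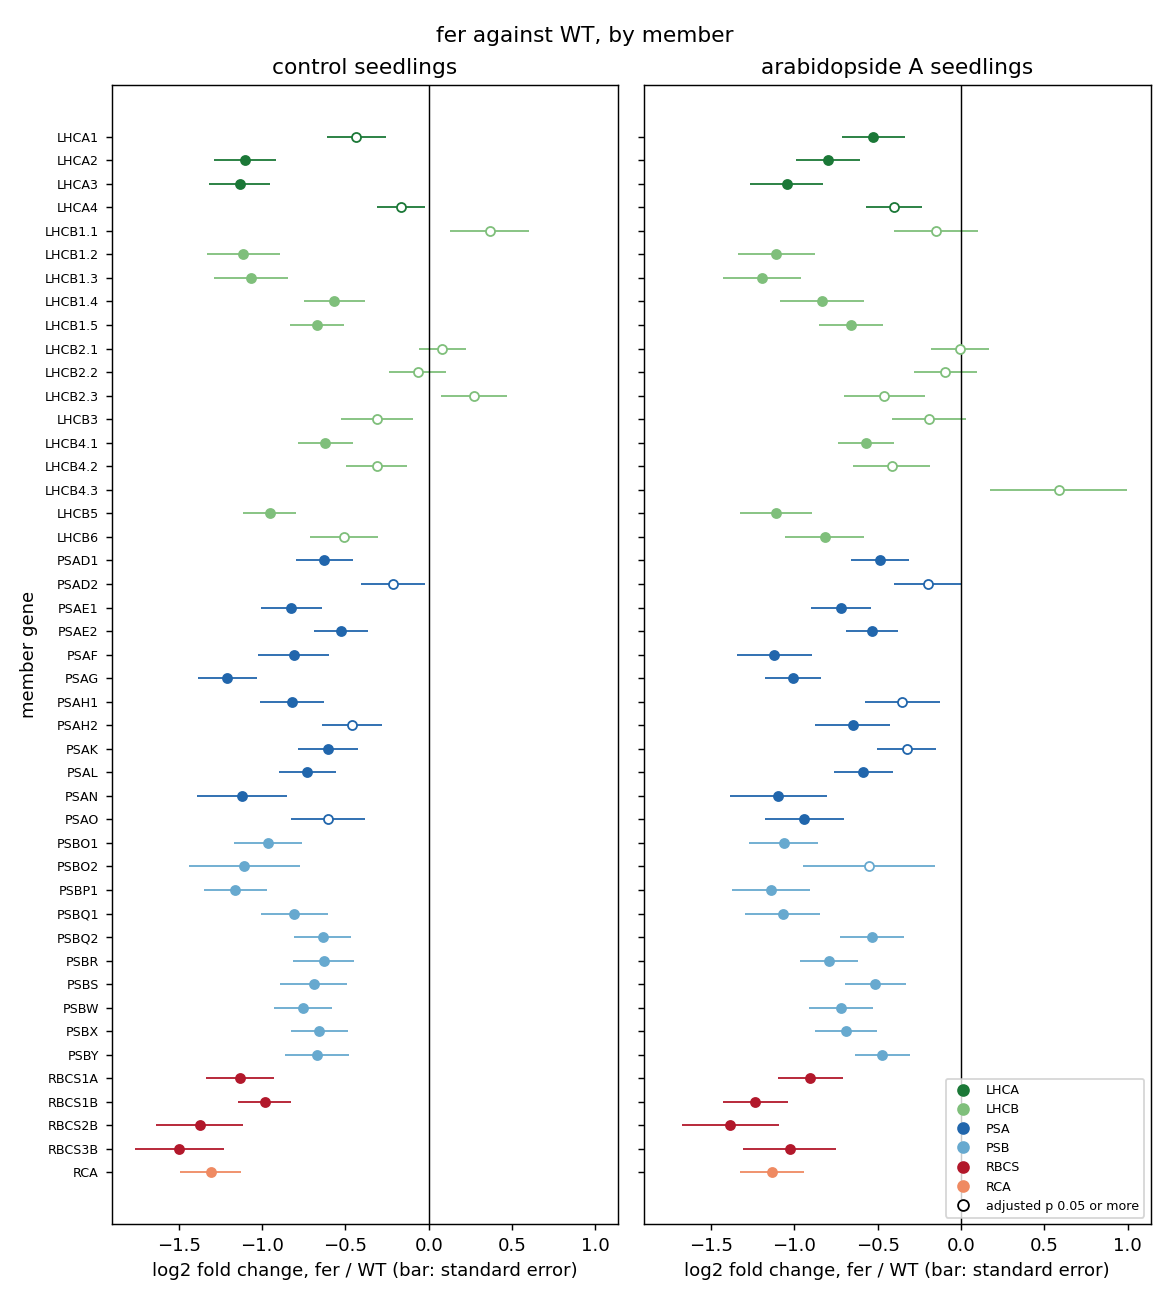
Log2 fold change of *fer* against WT for each gene, with its standard error, in control seedlings (left) and arabidopside A seedlings (right). Filled points have an adjusted p under 0.05, open points do not: 32 of 44 are filled on the left and 33 of 45 on the right, each of them below 0.

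Levels are given as CPM, counts scaled to library size with TMM factors, with libraries in the order of replicates 1 to 4. The Rubisco genes had the lowest subfamily median. All 4 RBCS genes and *RCA* were lower in *fer*, with a median log2 fold change of -1.26 for RBCS. *RBCS3B* (AT5G38410) was at 4473, 4881, 4926 and 4226 CPM in the WT control libraries and 2827, 1381, 1082 and 1321 CPM in the *fer* control libraries (log2 fold change -1.50, SE 0.27, adjusted p = 0.0032), 0.354 of the WT level. *RBCS1A* (AT1G67090) was at 6685, 7655, 7291 and 5535 CPM in the WT control libraries and 4442, 2818, 2105 and 3114 CPM in the *fer* control libraries (log2 fold change -1.13, SE 0.20, adjusted p = 0.0024). *RBCS1B* (AT5G38430) was at 199, 219, 225 and 181 CPM in the WT control libraries and 126, 120.2, 78.7 and 94.8 CPM in the *fer* control libraries (log2 fold change -0.98, SE 0.16, adjusted p = 0.0012). In none of these did a *fer* library reach a WT library, and in each *fer* replicate 1 was the highest *fer* library and replicate 3 the lowest. *RBCS2B*, the remaining gene, had a log2 fold change of -1.38 (SE 0.26), to 0.385 of the WT level. *RBCS1B*, *RBCS2B* and *RBCS3B* lie next to each other on chromosome 5 (chr5:15376988-15385320 in TAIR10.1), while *RBCS1A* is on chromosome 1. *RCA* (AT2G39730) was at 521, 578, 554 and 475 CPM in the WT control libraries and 304, 219, 152 and 191 CPM in the *fer* control libraries (log2 fold change -1.31, SE 0.19, adjusted p = 0.0006), the lowest adjusted p of the 44 genes.

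All 10 PSB genes of the set were lower in *fer* control seedlings. Their log2 fold changes lay between -1.16 and -0.63, with a median of -0.72. The extrinsic proteins on the lumen side, which shield the oxygen-evolving manganese cluster, are encoded by *PSBO1*, *PSBO2*, *PSBP1*, *PSBQ1* and *PSBQ2*. *PSBP1* (AT1G06680) was at 714, 774, 672 and 627 CPM in the WT control libraries and 418, 359.6, 209.5 and 271 CPM in the *fer* control libraries (log2 fold change -1.16, SE 0.19, adjusted p = 0.0013). *PSBO1* (AT5G66570) was at 2581, 2535, 2432 and 2318 CPM in the WT control libraries and 1556, 1669, 778 and 1096 CPM in the *fer* control libraries (log2 fold change -0.97, SE 0.20, adjusted p = 0.0054). Its paralog *PSBO2*, with a mean of 18.1 ± 2.71 CPM in WT and 8.34 ± 5.05 CPM in *fer* (SD, n = 4), had a log2 fold change of -1.11 (SE 0.33), and its groups overlapped through *fer* replicate 1. *PSBQ1* and *PSBQ2* had log2 fold changes of -0.81 (SE 0.20) and -0.64 (SE 0.17). Among the other subunits, *PSBR* (AT1G79040) was at 3658, 4118, 3779 and 4107 CPM in the WT control libraries and 3174, 3151, 1742 and 2141 CPM in the *fer* control libraries (log2 fold change -0.63, SE 0.18, adjusted p = 0.023), the PSB gene that changed least. *PSBW*, *PSBX* and *PSBY*, which encode small membrane-spanning subunits, changed by -0.76, -0.66 and -0.67 (log2; SE 0.17, 0.17 and 0.19). *PSBS*, the sensor of lumen acidity needed for rapid heat dissipation, changed by -0.69 (SE 0.20). *PSBO2*, *PSBQ2*, *PSBR*, *PSBS*, *PSBX* and *PSBY* missed the threshold in 1 to 8 of the 20 alternatives.

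Of the 12 PSA genes, 9 were lower in *fer* and 0 higher, with a median log2 fold change of -0.68. *PSAG* (AT1G55670), whose product binds on the side of the core that carries the LHCA antenna, was at 5612, 5987, 6152 and 5468 CPM in the WT control libraries and 3361, 2760, 1774 and 2244 CPM in the *fer* control libraries (log2 fold change -1.21, SE 0.18, adjusted p = 0.00071), 0.433 of the WT level. *PSAF* (AT1G31330), which encodes the docking subunit for plastocyanin, was at 1972, 2129, 1705 and 1840 CPM in the WT control libraries and 1242, 1540, 668 and 950.5 CPM in the *fer* control libraries (log2 fold change -0.81, SE 0.21, adjusted p = 0.016). The lowest WT value was above the highest *fer* value for both. *PSAN*, another subunit on the lumen side, had a log2 fold change of -1.12 (SE 0.27). The stromal subunits PSAD and PSAE, which dock ferredoxin, have a pair of genes each. *PSAD1* was lower (log2 fold change -0.63, SE 0.17), and *PSAD2* (AT1G03130), at 50.8, 66.3, 56.8 and 52.6 CPM in the WT control libraries and 72.0, 39.5, 43.4 and 41.0 CPM in the *fer* control libraries, did not pass (log2 fold change -0.21, SE 0.19, adjusted p = 0.45). The groups of *PSAD2* overlapped, with *fer* replicate 1 the highest of the 8 control libraries. *PSAE1* and *PSAE2* were both lower (-0.82, SE 0.18, and -0.53, SE 0.16). PSAH, *PSAL* and *PSAO* proteins sit where photosystem I accepts the mobile antenna of photosystem II. *PSAH1* and *PSAL* were lower (-0.82, SE 0.19, and -0.73, SE 0.17), and *PSAH2* (-0.46, SE 0.18) and *PSAO* (-0.60, SE 0.22) did not pass. *PSAK*, a membrane subunit at the antenna edge, was lower (-0.60, SE 0.18). *PSAD1*, *PSAE2*, *PSAF* and *PSAK* missed the threshold in 2 to 8 of the 20 alternatives.

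Among the antenna genes of photosystem I, *LHCA2* and *LHCA3* were lower in *fer*, and *LHCA1* and *LHCA4* did not pass. *LHCA3* (AT1G61520) was at 1213, 1314, 1226 and 1144 CPM in the WT control libraries and 755, 642, 392 and 462 CPM in the *fer* control libraries (log2 fold change -1.13, SE 0.18, adjusted p = 0.0013), without overlap. *LHCA2* changed by -1.1 (SE 0.19). *LHCA4* (AT3G47470) was at 425, 482, 419 and 420.1 CPM in the WT control libraries and 476, 434, 345 and 312 CPM in the *fer* control libraries (log2 fold change -0.17, SE 0.14, adjusted p = 0.42), and its groups overlapped. *LHCA1* changed by -0.43 (SE 0.18, adjusted p = 0.09). The proteins pair as *LHCA1* with *LHCA4* and *LHCA2* with *LHCA3* in the assembled antenna. The grouping of the values by these pairs was noticed after they were seen and was not tested.

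The LHCB subfamily was the least uniform, with 6 of its 13 tested genes lower in *fer*, 0 higher and a median log2 fold change of -0.51. LHCB1 and LHCB2 encode the main trimeric antenna of photosystem II, together with *LHCB3*. Of the 5 LHCB1 genes, 4 were lower. *LHCB1.3* (AT1G29930) was at 6573, 5868, 5432 and 5522 CPM in the WT control libraries and 3688, 3475, 1605 and 2494 CPM in the *fer* control libraries (log2 fold change -1.07, SE 0.22, adjusted p = 0.0052). *LHCB1.2* (AT1G29910) was at 2326, 2307, 2300 and 1959 CPM in the WT control libraries and 1373, 1286, 604 and 888 CPM in the *fer* control libraries (log2 fold change -1.11, SE 0.22, adjusted p = 0.0043). *LHCB1.1* (AT1G29920), their neighbour on chromosome 1, was at 349, 305, 301 and 332 CPM in the WT control libraries and 438, 614, 225 and 398 CPM in the *fer* control libraries (log2 fold change 0.37, SE 0.24, adjusted p = 0.29). Its *fer* replicates 1, 2 and 4 were above every WT control library and replicate 3 below every one, and it was the LHCB1 gene with a positive fold change. Without *fer* control replicate 3 its log2 fold change was 0.59 with an adjusted p of 0.010, the only gene of the set called higher in that comparison by any fit that left out 1 library (13.2% of all genes tested were higher in that fit). On a log2 scale the ratio of *LHCB1.1* to *LHCB1.3* counts was -4.18 ± 0.0923 in WT control and -2.77 ± 0.247 in *fer* control (SD, n = 4), a pair chosen after its values were seen. *LHCB1.4* and *LHCB1.5*, on chromosome 2, changed by -0.57 (SE 0.18) and -0.67 (SE 0.16), and *LHCB1.4* missed the threshold in 8 of the 20 alternatives.

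None of the 3 LHCB2 genes passed in *fer* against WT control, at an adjusted or an unadjusted p of 0.05 or in any of the 20 alternatives. *LHCB2.1* was at 145, 172, 162 and 147 CPM in the WT control libraries and 208, 167, 141 and 152 CPM in the *fer* control libraries. *LHCB2.2* averaged 156 ± 20.2 CPM in WT and 149.8 ± 37.3 CPM in *fer* (SD, n = 4), and *LHCB2.3* averaged 9.43 ± 0.587 and 11.4 ± 2.07 CPM. The log2 fold changes were 0.08 (SE 0.14), -0.07 (SE 0.17) and 0.27 (SE 0.20), and that of *LHCB2.1* turned to -0.02 with upper quartile scaling. The groups overlapped for all 3 genes. *LHCB3* changed by -0.31 (SE 0.22, adjusted p = 0.32). The minor antenna proteins that link the trimers to the core come from LHCB4, *LHCB5* and *LHCB6* genes. *LHCB5* (AT4G10340) was at 544, 561, 472 and 486 CPM in the WT control libraries and 352, 257, 202 and 260.0 CPM in the *fer* control libraries (log2 fold change -0.95, SE 0.16, adjusted p = 0.0015), without overlap. *LHCB4.1* was lower (-0.62, SE 0.16), while *LHCB4.2* (-0.31, SE 0.18) and *LHCB6* (-0.51, SE 0.20) did not pass. *LHCB4.3* was near the detection limit in every group, at 1.68 ± 0.303 CPM in WT control and 1.97 ± 0.556 in *fer* control.

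**Figure D3:**
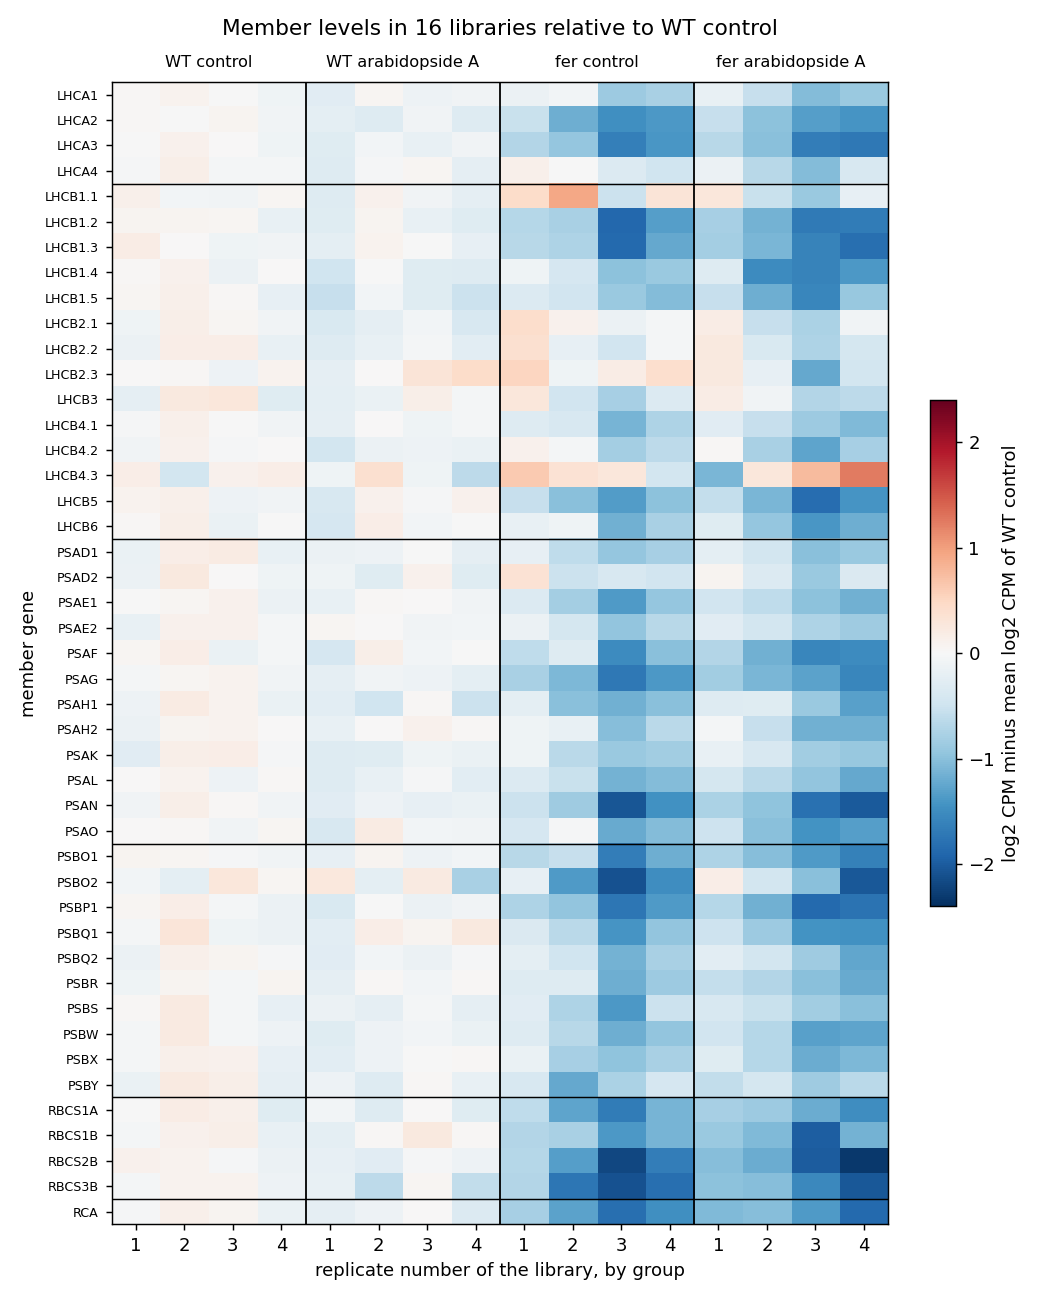
Log2 CPM of each gene in each of the 16 libraries minus its mean in WT control, with blue for lower and red for higher values. For most genes the columns of *fer* replicates 3 and 4 are bluest in both treatments, and *LHCB1.1*, the LHCB2 genes and *LHCB4.3* stay near or above 0 in most *fer* control libraries.

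Most of the called genes in the other photosynthesis lists were lower in *fer* too. Of 13 genes of electron transport and ATP synthase, 9 were lower in *fer* control and 0 higher (median log2 fold change -0.72), among them *PETE2* (plastocyanin, -1.08, SE 0.16), *ATPC1* (-1.01, SE 0.17) and *ATPG* (-0.89, SE 0.15), of the ATP synthase. Of 15 Calvin cycle genes, 9 were lower and 0 higher (median -0.68), with *PRK* (phosphoribulokinase) at -1.11 (SE 0.18), *GAPA2* at -0.86 (SE 0.16) and *FBA2* at -0.84 (SE 0.16). Of 16 tested genes of chlorophyll synthesis, 9 were lower, among them *PORB* (-0.996, SE 0.15), *CHLI1* (-0.95, SE 0.16) and *CHLD* (-0.91, SE 0.18), and 1 was higher, *HEMA1* (0.47, SE 0.15), which encodes the first enzyme of the pathway. Of 12 regulator genes, 7 were lower, with *GNC* at -0.87 (SE 0.15), *SIG2* at -0.99 (SE 0.19) and *PIF3* at -0.74 (SE 0.16). *SIG5*, a sigma factor for chloroplast transcription induced by stress, was higher (1.23, SE 0.33). *GLK2*, which activates antenna genes, was lower (-0.98, SE 0.23), and its paralog *GLK1* did not pass (0.21, SE 0.17). Of 8 tested genes related to the photosystems but outside the set, 4 were lower, with *PSBTN* at -0.96 (SE 0.21), *CURT1B* at -0.81 (SE 0.21) and *LHCB7* at -1.34 (SE 0.37). *LHCB7* was near the detection limit, with 177 counts in all 16 libraries, at 2.23 to 3.09 CPM in WT control and 0.89 to 1.41 in *fer* control. The shares of these lists stand against 11.5% lower and 15.7% higher among all genes tested. With arabidopside A, lower in *fer* were 10 of 13 genes of electron transport and ATP synthase and 12 of 15 of the Calvin cycle. The same held for 12 of 16 of chlorophyll synthesis, 5 of 12 regulator and 4 of 8 related genes. In each list 0 were higher there, *HEMA1* and *SIG5* included, against 14% lower and 17.2% higher among all genes tested. *GNC* was at 22.7, 31.5, 21.3 and 23.8 CPM in WT and 17.7, 18.1, 23.8 and 37.1 CPM in *fer*, with overlap.

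Markers of other tissue and of time of day were read beside these values. Of 12 root markers, 9 were tested and 6 of these did not pass in *fer* against WT control. Among those that passed, *CASP2* (0.77, SE 0.22) was higher in *fer* and *NRT2.1* (-1.29, SE 0.36) was lower. The summed level of the root markers was 335 to 407 CPM in WT control and 349 to 479.9 in *fer* control, and no root marker was at 0 in all libraries. Within *fer* control the summed root level was 377 and 479.9 CPM in replicates 1 and 2 and 349 and 396 in replicates 3 and 4. None of 6 tested clock genes passed in edgeR at an adjusted or an unadjusted p of 0.05, and their summed level was 252 to 265 CPM in WT control and 241 to 328 in *fer* control. With arabidopside A, 3 of 10 tested root markers were higher in *fer* and 0 lower, with a median log2 fold change of 0.36, against 17.2% higher and 14% lower among all genes tested. *CASP2* (0.85, SE 0.24) and *MYB36* (1.08, SE 0.33) were among these. The summed root level was 279 to 352 CPM in WT with arabidopside A and 277 to 431 in *fer* with arabidopside A. Of 7 tested clock genes 1 was higher there, *ELF4* (0.46, SE 0.16, adjusted p = 0.036), and their summed level was 227 to 255 CPM in WT and 239 to 355 in *fer*. The part of root content or of time of day in the photosystem values was not tested.

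The same genotypes with arabidopside A gave a second set of 8 libraries that the control comparison did not use, although the *fer* libraries of both treatments deviated together by replicate 1 and 2 against 3 and 4. There, 33 of the 45 genes were lower in *fer* and 0 higher, which is 73.3%, against 14% lower and 17.2% higher among the 18132 genes tested (31.2% in all). The median log2 fold change was -0.69, and -0.01 for all genes tested. In 28 genes (62.2%) every *fer* library was below every WT library, against 15.6% of all genes tested, and in 0 genes above, against 16.8%. The count of higher genes was also 0 at an unadjusted p under 0.05 (22.4% of all genes tested were higher by that rule), with DESeq2 and with limma-voom. The shares of all genes higher with DESeq2 and limma-voom are not given for this comparison either. Called in both comparisons were 29 genes, 90.6% of the 32 and 87.9% of the 33. The share called in both among all genes called lower is not given here, so this overlap is not read as a trait of the set. *PSAH1*, *PSAK* and *PSBO2* passed only the control test, and *LHCA1*, *LHCB6*, *PSAH2* and *PSAO* only the arabidopside A test. None of these 7 passed the test of the difference between the responses of the genotypes. Without *fer* arabidopside A replicates 3 and 4 the count of lower genes was 12, and without replicates 1 and 2 it was 39. The share of all genes lower in those fits is not given here. Of the 33, 12 passed in each of the 29 alternatives, which include the fit without replicates 3 and 4, chosen after seeing the data. *LHCA2*, *LHCB1.2*, *PSAE1*, *PSAE2*, *PSAN*, *PSAO*, *PSBW*, *PSBX*, *RBCS1A* and *RBCS3B* missed the threshold in 1 of the 29. The remaining genes missed it in 3 to 12.

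By subfamily, 4 of 4 RBCS genes, *RCA*, 9 of 10 PSB, 9 of 12 PSA, 3 of 4 LHCA and 7 of 14 LHCB genes were lower. With arabidopside A, *RBCS1B* was at 175, 208, 243 and 209 CPM in WT and 111, 97.9, 51.8 and 94.0 CPM in *fer* (log2 fold change -1.23, SE 0.20, adjusted p = 0.00031), the lowest adjusted p of the set there. *RCA* was at 458, 489.6, 535 and 424 CPM in WT and 255, 263, 206 and 145 CPM in *fer* (log2 fold change -1.13, SE 0.19, adjusted p = 0.00052). *RBCS1A* was at 6437, 5471, 6792 and 5544 CPM in WT and 3889, 3700, 2969 and 2398 CPM in *fer* and changed by -0.90 (SE 0.19). *RBCS3B*, at 4081, 3001, 4748 and 3078 CPM in WT and 2324, 2276, 1579 and 1127 CPM in *fer*, changed by -1.03 (SE 0.28). As in the controls, *fer* replicate 1 was the highest or near the highest *fer* library for these genes, and no *fer* library reached WT. *RBCS2B* changed by -1.38 (SE 0.29), the lowest value of the 45.

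Among the photosystem subunits with arabidopside A, *PSAG* was at 4977, 5483, 5344 and 4933 CPM in WT and 3269, 2711, 2372 and 1957 CPM in *fer* (log2 fold change -1.01, SE 0.17, adjusted p = 0.0005). *PSAF* was at 1435, 2102, 1825 and 1896 CPM in WT and 1176, 854, 642 and 669 CPM in *fer* (log2 fold change -1.12, SE 0.23, adjusted p = 0.002). *PSBO1* was at 2140, 2572, 2268 and 2341 CPM in WT and 1483, 1219, 956 and 797 CPM in *fer* (log2 fold change -1.06, SE 0.21, adjusted p = 0.0014). None of these overlapped between genotypes. *PSBP1* was at 539, 693, 632 and 655 CPM in WT and 432, 314, 192 and 204 CPM in *fer* (log2 fold change -1.14, SE 0.24, adjusted p = 0.0023). *PSBR*, at 3370, 3973, 3755 and 3969 CPM in WT and 2640, 2403, 1962 and 1689 CPM in *fer*, changed by -0.79 (SE 0.17). *PSAD2*, at 52.5, 46.1, 60.4 and 46.0 CPM in WT and 59.0, 44.99, 30.4 and 44.2 CPM in *fer*, again did not pass and overlapped (log2 fold change -0.20, SE 0.20, adjusted p = 0.47).

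Among the antenna genes with arabidopside A, *LHCB5* was at 396, 549.9, 502 and 549 CPM in WT and 347, 240.0, 146 and 192 CPM in *fer* (log2 fold change -1.11, SE 0.22, adjusted p = 0.0015). *LHCB1.3* was at 4970, 6208, 5799 and 5106 CPM in WT and 3327, 2744, 1928 and 1660 CPM in *fer* (log2 fold change -1.19, SE 0.23, adjusted p = 0.0016). *LHCB1.2* was at 1819, 2318, 1962 and 1808 CPM in WT and 1281, 1006, 686 and 696 CPM in *fer* (log2 fold change -1.11, SE 0.23, adjusted p = 0.0024). These genes, and *LHCA3*, at 998, 1175, 1085 and 1160 CPM in WT and 773, 609.8, 386 and 370.5 CPM in *fer* (log2 fold change -1.05, SE 0.22, adjusted p = 0.0025), did not overlap between genotypes. *LHCA4*, at 354, 426, 449.7 and 377 CPM in WT and 396, 275, 213 and 333 CPM in *fer*, did not pass (log2 fold change -0.40, SE 0.17, adjusted p = 0.076). *LHCB1.1*, at 259, 344, 305 and 276 CPM in WT and 390.2, 223, 173 and 279.5 CPM in *fer*, did not pass either (log2 fold change -0.15, SE 0.25, adjusted p = 0.69), and its sign differed from that in the controls. The LHCB2 genes had values of -0.01 (SE 0.17), -0.09 (SE 0.19) and -0.46 (SE 0.24), with adjusted p from 0.16 to 0.98, and *LHCB2.1* turned positive with RLE scaling (0.02). *LHCB2.3* was called lower without *fer* arabidopside A replicate 1 (-0.66, SE 0.24, adjusted p = 0.042) and without replicates 1 and 2 (-0.90, SE 0.28, adjusted p = 0.017). Leaving out replicate 1 also brought calls of lower *LHCA4* (-0.54, SE 0.16), *LHCB4.2* (-0.71, SE 0.18) and *PSAK* (-0.46, SE 0.17).

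The photosystem and Rubisco genes varied more among the *fer* libraries than among the WT libraries. The median SD of log2 CPM over the 45 genes was 0.12 in WT control and 0.15 in WT with arabidopside A, and 0.42 in both *fer* groups. Over all genes tested it was 0.22 and 0.23 in WT and 0.37 and 0.31 in *fer*, and over the 3685 genes with a mean of at least 50 CPM it was 0.12 and 0.12 in WT and 0.26 and 0.23 in *fer*. The SD was larger in *fer* control than in WT control for 45 of 45 genes, against 76.7% of all genes tested and 86.4% of genes with at least 50 CPM, and larger in *fer* with arabidopside A for 44 of 45, against 67.3% and 80.6%. By subfamily, the median SD in *fer* control ran from 0.41 for PSA to 0.53 for RBCS. These are descriptions over genes measured in the same libraries, which are not independent of each other.

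In both *fer* groups replicates 1 and 2 lay above replicates 3 and 4 for most of the genes. In *fer* control, replicate 1 was the highest library for 39 of 45 genes and replicate 3 the lowest for 39. In *fer* with arabidopside A, replicate 1 was the highest for 41, replicate 3 the lowest for 23 and replicate 4 for 21. Replicates 1 and 2 were both above replicates 3 and 4 for 36 genes (80%) in *fer* control and 39 (86.7%) in *fer* with arabidopside A. Of all genes tested this held for 28.2% and 28%, and of genes with at least 50 CPM for 35.8% and 31.7%. In WT it held for 15 of the 45 genes in control and 1 with arabidopside A. This split of the replicates was chosen after seeing the data. Set against the WT control mean, the median gene stood at -0.31, -0.61, -1.16 and -0.93 (log2) in *fer* control replicates 1 to 4 and at -0.45, -0.69, -1.19 and -1.21 in *fer* arabidopside A replicates 1 to 4. Every one of the 8 *fer* medians was thus below the WT control mean, and the median over all genes tested lay between -0.03 and 0.03 in these libraries. In WT control the corresponding medians were -0.03, 0.12, 0.02 and -0.09, with replicate 2 the highest library for 27 genes. The labels give no batch, day or plate that would group replicates 1 with 2, so no value within a batch was computed. Without *fer* control replicates 3 and 4 there were 28 lower genes in *fer* against WT control, and without replicates 1 and 2 there were 40. Both counts stand without the share of all genes lower in the same fit.

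**Figure D4:**
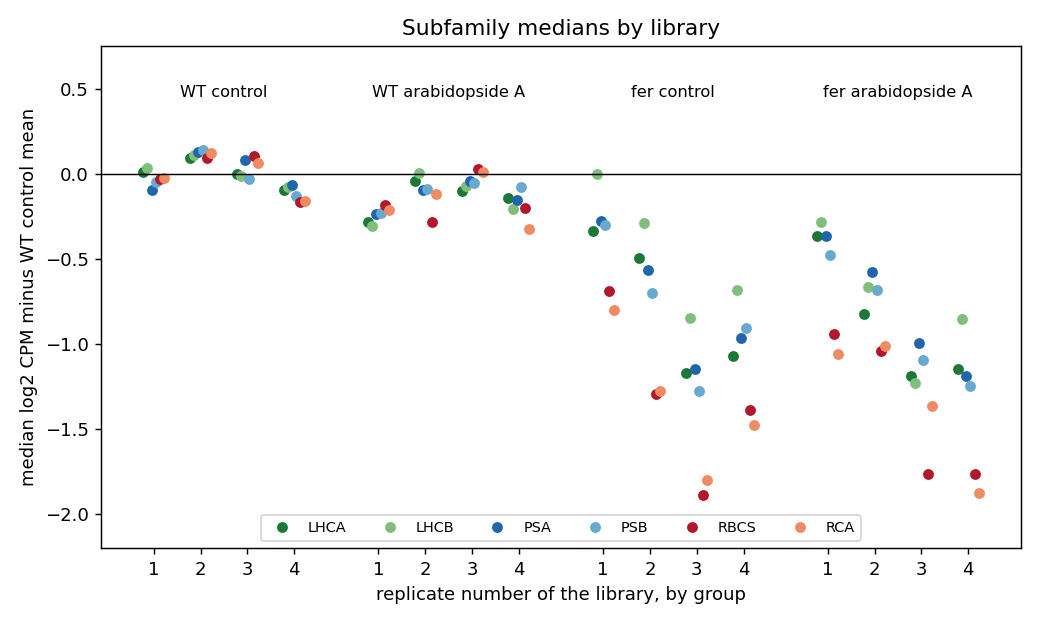
Median over the genes of each subfamily of log2 CPM minus the WT control mean, for each of the 16 libraries. WT libraries stay near 0, and in both *fer* groups each subfamily is lower in replicates 3 and 4 than in replicates 1 and 2, with RBCS and *RCA* the lowest in each library of *fer*.

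Arabidopside A gave no called change in these genes in the fit of all 16 libraries, where all groups share 1 estimate of the spread. The median SD of log2 CPM over the 45 genes was 0.12 and 0.15 in the WT groups and 0.42 in both *fer* groups. The part of this unequal spread in the WT result was not tested. In WT, 0 of 45 passed in edgeR, where 1.97% of 18132 genes did (1.84% higher and 0.132% lower), and 0 passed at an unadjusted p under 0.05 (8.58% of all genes tested did), with DESeq2 or with limma-voom. The shares of all genes called with DESeq2 and limma-voom are not given here. The median log2 fold change was -0.13, and 42 of 45 values were negative, against 49.3% of all genes tested. The lowest was *LHCB1.5* at -0.35 (SE 0.19, adjusted p = 0.71). In a fit of the 8 WT libraries alone, 3 genes were lower (2.06% of the 16775 genes tested in that fit were lower), *LHCB1.5* (-0.36, SE 0.09), *LHCB1.4* (-0.28, SE 0.09) and *LHCA2* (-0.24, SE 0.07). *LHCB4.2* and *PSAN* were the 2 genes without overlap between the WT groups, both lower with arabidopside A (4.44%, against 3.67% of all genes tested), and 0 were higher without overlap, against 7.01%.

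In *fer*, 0 of 45 genes passed, where 0.381% of all genes tested did (0.37% higher and 0.011% lower), and 0 passed with DESeq2 or limma-voom. In 0 genes were the *fer* groups without overlap, against 1.19% lower and 1.97% higher of all genes tested. The median was -0.14, and 32 values were negative, against 52% of all genes tested. An unadjusted p under 0.05 was found for 4 genes, all lower, where 3.55% of all genes tested were lower by that rule: *LHCB1.1* (-0.65, SE 0.25), *LHCB2.3* (-0.59, SE 0.24), *LHCB1.4* (-0.55, SE 0.25) and *LHCA4* (-0.37, SE 0.17). When genotype and replicate number were entered together as a block, *LHCB1.4* passed (-0.60, SE 0.13, adjusted p = 0.034), with 0.149% of all genes tested lower in that fit. *LHCB1.4* was at 340.3, 276, 184 and 196 CPM in *fer* control and 294, 128, 119.7 and 141 CPM in *fer* with arabidopside A. It was lower with arabidopside A at each of the 4 replicate numbers. It also passed without *fer* arabidopside A replicate 1, its highest treated library (-0.94, SE 0.18, adjusted p = 0.045), where 0.0163% of all genes tested were lower. For the difference between the responses of *fer* and WT, 0 genes passed (0.11% of all genes tested did, 0.11% lower and 0% higher), 0 passed with DESeq2 or limma-voom, and 1 had an unadjusted p under 0.05, *LHCB2.3* (-0.74, SE 0.35), against 4.9% of all genes tested. The median of that difference was -0.01. For the response in *fer* and for the difference, the shares of all genes called with DESeq2 and limma-voom are not given here.

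**Figure D5:**
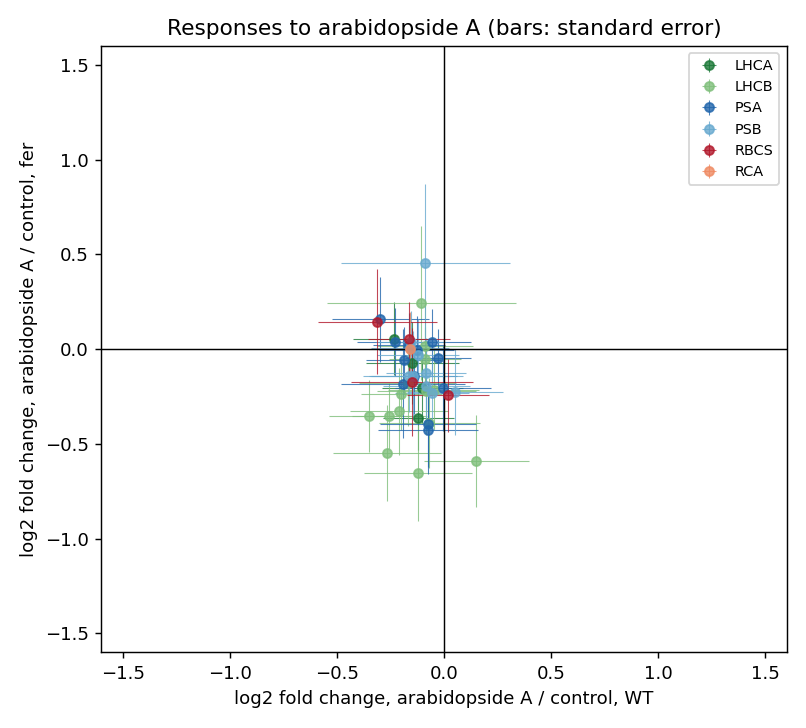
Log2 fold change with arabidopside A in WT (horizontal) and in *fer* (vertical) for the 45 genes, with standard errors, coloured by subfamily. Most points lie below 0 on both axes and within -0.35 to 0.15 in WT. None passed the test in either genotype in the fit of all 16 libraries.

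Promoters of the set were read for 3 words known from light-regulated plant promoters, on both strands, from 250 bases before to 50 after each gene's annotated start (RefSeq, TAIR10.1 build). The G-box word CACGTG was present in 15 of 45 (33.3%), and in 7.68% of 27443 protein-coding genes. The I-box word GATAAG was present in 20 (44.4%), and in 14.6% of all. CCAATC, a word bound by GLK-type factors, was present in 16 (35.6%), and in 12.3% of all. At least 1 word was in 32 of the 45 windows. Among the subfamilies with more than 1 gene, CACGTG was most frequent in PSB windows (6 of 10) and CCAATC in LHCA (3 of 4) and LHCB windows (8 of 14). The CACGTG of *PSBO1*, *PSBO2*, *PSBR* and *PSBW* lay after the annotated start, and those of *PSBQ1* and *PSBQ2* before it. CCAATC was in 0 of 4 RBCS promoters and in that of *RCA*. A match is a description of letters and no evidence of binding. The 4 promoters are shown for the contrast in their genes' values: *RBCS2B*, the lowest of the set with arabidopside A; *LHCB1.3* and its neighbour *LHCB1.1*, whose fold changes in the controls had opposite signs; and *LHCB2.1*, from the group in which no gene passed. Each is the 200 bases before the annotated start, 5′ to 3′, with the words found in capitals.
RBCS2B: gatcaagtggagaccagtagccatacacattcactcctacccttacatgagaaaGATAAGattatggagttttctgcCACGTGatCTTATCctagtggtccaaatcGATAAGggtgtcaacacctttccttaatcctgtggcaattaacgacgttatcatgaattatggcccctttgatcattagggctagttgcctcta
LHCB1.3: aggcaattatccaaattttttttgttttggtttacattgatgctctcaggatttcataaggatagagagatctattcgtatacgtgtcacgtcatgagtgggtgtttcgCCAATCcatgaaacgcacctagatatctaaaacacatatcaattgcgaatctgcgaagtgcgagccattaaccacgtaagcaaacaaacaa
LHCB1.1: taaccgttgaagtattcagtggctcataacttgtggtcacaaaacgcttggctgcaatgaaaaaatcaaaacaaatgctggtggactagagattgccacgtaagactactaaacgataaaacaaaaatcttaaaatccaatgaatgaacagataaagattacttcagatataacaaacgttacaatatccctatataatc
LHCB2.1: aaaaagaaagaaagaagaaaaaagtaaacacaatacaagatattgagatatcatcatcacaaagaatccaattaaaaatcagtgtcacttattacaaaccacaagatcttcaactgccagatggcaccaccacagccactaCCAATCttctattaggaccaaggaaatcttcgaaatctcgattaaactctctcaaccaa

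The *RBCS2B* stretch (chr5:15382072-15382271, minus strand) holds 1 G-box between I-box words, of which there are 3, 1 of them read on the opposite strand as CTTATC. The *LHCB1.3* stretch (chr1:10477685-10477884, plus strand) holds 1 CCAATC. The *LHCB1.1* stretch (chr1:10475970-10476169, minus strand) holds none of the words, and *LHCB1.1* and *LHCB1.3* are read away from each other. The *LHCB2.1* stretch (chr2:1824481-1824680, minus strand) shows 1 CCAATC, and its window holds a further CCAATC across the start and a GATAAG upstream of the bases shown. *LHCB1.2*, which fell with *LHCB1.3*, also has none of the words in its window.

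Near-identical paralogs could mostly be told apart by exact 50-base words at their annotated transcript ends. Alignment with mismatches and the transcript ends in use were not examined. In the last 500 bases of each gene's transcript, 71.6% to 100% of 50-base words occurred nowhere else in the genome, and in the last 200 bases 100% did for every gene but *LHCA2* (97.4%). Genes annotated on the opposite strand overlap 16 of the 45, with the longest overlaps at *LHCB1.5* (1045 bases, a long noncoding RNA), *PSAH1* (788 bases) and *LHCB2.3* (595 bases). Whether counting used the strand is not given in the sources used here. If it did not, counts of these genes may include reads of the other strand or lack their own reads from the overlaps.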

How the data were processed

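RNA of 16 seedling libraries was sequenced from transcript 3′ ends (Lexogen QuantSeq, 50-bp reads). Alignment was with STAR to the TAIR10 genome, gene counts were made with HTSeq, and the authors deposited these whole-number counts as they were; strand use is not given in the sources used here. The values are thus relative within a library, and counts limit the precision of low genes such as LHCB4.3. Groups and replicate numbers came from the sample titles. TMM factors, filterByExpr and the robust quasi-likelihood F test of edgeR 4.0.16 (R 4.3.3) gave p-values, adjusted by Benjamini-Hochberg over all genes tested and called under 0.05. For *fer* against WT control only those 8 libraries were fitted. The other comparisons came from 1 fit of 16 libraries. SE is the absolute log2 fold change divided by the square root of F. CPM came from the scaling of all 16 libraries, with a prior count of 1 for log2 values.

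The reported tests paired no libraries, and a block of genotype and replicate number was entered only as an alternative. Deviations from the group means in same-numbered *fer* control and *fer* arabidopside A libraries correlated at 0.60, 0.35, 0.18 and 0.36 across genes. Libraries of other groups shared only a number. Of the 4 *fer* control libraries, 2 correlated best with their own number. Replicate 2 correlated best with arabidopside A replicate 1 (0.48) and replicate 3 with replicate 4 (0.67).

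The genes and all lists were chosen with earlier results of these data known. Values in every library are given for the gene of each subfamily with the highest mean CPM, those with the largest and smallest log2 fold change in *fer* against WT control, and the genes called in any other comparison, up to the 10 with the lowest adjusted p (0 were called in 3 of these comparisons), and for each other list up to 3 called genes; LHCB1.4, LHCB2.1 and other genes named beyond that were chosen after their values were seen. Alternatives were other scalings, filters, DESeq2 1.42.0, limma-voom (limma 3.58.1), blocks, sets of libraries and leaving out libraries. Leaving out *fer* replicates 1 and 2 or 3 and 4 together was chosen after seeing the data. The value of 1 root marker is not reported here. Positions and promoters are from RefSeq TAIR10.1, and the counts carry no coordinates.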

Additional observations from a re-analysis of the deposited data

Results flagged for a closer look

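In 8 of 188 groups of 4 libraries examined, 1 library stood apart from the other 3 by a gap test at the 95% level, which chance does in about 1 in 20 groups. *fer* with arabidopside A replicate 2 had 26358335 counts, where the other 3 libraries had 4994304 to 6860427. Thinning it to the median total of all other libraries of the 4 groups changed no count of called genes among the 45 by over 1.5 times. *LHCA4* was at 481.9 CPM in WT control replicate 2 (419.3 to 424.9 in the others). *LHCB1.2* was at 1959 CPM in WT control replicate 4 (2300 to 2326 in the others). *LHCB1.4* was at 294.3 CPM in *fer* arabidopside A replicate 1 (119.7 to 141.3 in the others). *LHCB4.2* was at 232.7 CPM in WT arabidopside A replicate 1 (284.7 to 291.4 in the others). *LHCB4.3* was at 1.229 CPM in WT control replicate 2 (1.791 to 1.859 in the others). *PSAD2* was at 71.99 CPM and *PSAH1* at 352.1 CPM in *fer* control replicate 1, where the others had 39.49 to 43.36 and 186.1 to 207.7. That library was the highest *fer* control library for 39 of the 45 genes.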

How the results depend on the processing

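The median of all genes tested moved from -0.03 to -0.13 with upper quartile scaling in *fer* against WT control, and the share of higher calls among all calls fell to 48.7% from 57.6%; the count of 32 lower genes of the set did not change. That count was 32 with the other scalings and filters and with DESeq2, 33 with limma-voom, 33 with the replicate number as a block, 30 in the fit of 16 libraries and 12 where calls also had to reach a log2 size of 1, which is a stricter rule. Leaving out 1 library at a time gave 20 to 37 lower genes (20 without WT control replicate 2) and 0 to 1 higher, and leaving out *fer* control replicates 3 and 4 gave 1 higher, *LHCB1.1*. Without those 2 libraries *LHCA4* (0.0462), *LHCB2.2* (0.1072) and *LHCB4.2* (0.01173) turned positive, and without replicates 1 and 2 *LHCB1.1* (-0.02501) and *LHCB2.1* (-0.07033) turned negative. *LHCB2.1* was also negative with upper quartile scaling (-0.01591). Over fits without 1 library, *LHCB2.1* ranged from -0.03966 to 0.169 and *LHCB2.2* from -0.2398 to 0.06259.

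In *fer* against WT with arabidopside A, leaving out 1 library gave 22 to 36 lower genes, leaving out *fer* replicates 3 and 4 gave 12, and leaving out replicates 1 and 2 gave 1 higher, *LHCB4.3*. Without replicates 3 and 4 the signs of *LHCB1.1* (0.04931), *LHCB2.1* (0.101), *LHCB2.2* (0.1472), *LHCB3* (0.1229), *PSAD2* (0.009812) and *LHCB4.3* (-0.02006) turned. *LHCB2.1* was positive with RLE factors (0.0185), no filter (0.01175), at least 10 counts in every library (0.0167), DESeq2 (0.01779) and the 8 arabidopside A libraries alone (0.00631). Without 1 library it ranged from -0.1714 to 0.1383, *LHCB1.1* from -0.3808 to 0.01736 and *LHCB2.2* from -0.3028 to 0.03969. For arabidopside A, the WT libraries alone gave 3 lower genes. In *fer*, genotype and replicate number as a block gave 1, and leaving out 1 library gave 0 to 1. The block changed no other count of calls by over 1.5 times. Apart from the stricter rule and from fits with fewer libraries, the cause of each change was not tested. Counts of called genes under every alternative in this section stand without the share of all genes called in the same fit. Low counts limit *LHCB4.3* and *LHCB2.3*.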
